A study of Homo sapiens with 8 samples.

Results

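The effect of SOX4 loss on gene expression in Hep3B cells was set against the effect of STAT6 knockdown, gene by gene, to find genes and functions that moved the same way in both, moved in opposite directions, or moved in the SOX4 knockout only. The genes compared were those listed in both deposited tables after transcripts had been summed by gene symbol, 14826 of the 16169 genes listed in either. Of these, 13407 were tested in all 3 fits used here, and 1419 had too few reads in at least 1 fit. Hep3B is a human hepatocellular carcinoma cell line. RNA-seq had been made from 8 libraries, 2 in each of 4 groups: wild-type Hep3B, Hep3B SOX4-/- cells made with CRISPR/Cas9 and kept in puromycin, and Hep3B after transfection with either control siRNA or STAT6 siRNA. The knockout effect was the SOX4-/- libraries minus the Hep3B libraries of the first table. The siRNA effect was STAT6 siRNA minus control siRNA within each library number of the other table. The study's methods tie the knockout RNA-seq to 2 knockout lines, #1 and #2, and the labels number the knockout libraries 1 and 2 without naming a line, so the spread of that group may be one between lines. The knockdown was a transfection of cells with SOX4 intact. For the other groups nothing in the labels says that the libraries came from separate cultures, so p-values measure the spread between these libraries, which may there be technical.

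SOX4 is a transcription factor of the SRY-related HMG-box family that bends DNA at its sites and is often raised in hepatocellular carcinoma. STAT6 is a latent transcription factor that interleukin-4 and interleukin-13 receptors activate through Janus kinases, after which it enters the nucleus as a dimer. The study asked whether both factors act on shared genes, among them MTHFD2, a mitochondrial enzyme of folate metabolism. The contrast asks which changes of the knockout were also present after STAT6 knockdown and which were not.

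Library totals lay between 16266282 and 25353113 expected counts, that is, estimated read counts that need not be whole. Values per library below are CPM, counts scaled to library size, with TMM scaling, made within each table separately, so levels are not compared across tables by a test. All 8 hepatoma cell markers had reads in every library, with a summed level of 12106.4 to 53426.6 CPM, against 0.1 to 0.4 CPM for the lymphocyte marker listed, 9.0 to 65.6 for 3 endothelial, 10.6 to 105.4 for 5 fibroblast and stellate, 35.5 to 440.6 for 3 macrophage and 688.1 to 1690.2 for 5 cholangiocyte markers. Apart from the lymphocyte marker, every one of these sums was higher in both knockout libraries than in both Hep3B libraries. Of the markers tested, TTR of the hepatoma list and PDGFRB of the fibroblast list were called higher in the knockout, and CD14 of the macrophage list with the siRNA. The median effects in the knockout and with the siRNA were 1.35 and 0.42 over 8 hepatoma, 0.59 and 0.36 over 4 fibroblast, 1.61 and 0.19 over 3 macrophage and 0.82 and -0.04 over 4 cholangiocyte markers, and their part in the results was not tested.

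SOX4 itself, on chromosome 6, had 799 and 266 CPM in libraries 1 and 2 of wild-type cells, against 298 and 302 CPM in the libraries labelled SOX4 knockout. The groups overlapped, so transcript level cannot serve to check the knockout label, and each knockout direction below rests on that label. In the siRNA table SOX4 had 275 and 816 CPM with control siRNA and 179 and 599 CPM with STAT6 siRNA, lower by 0.62 and 0.45 on the log2 scale within numbers 1 and 2. Its log2 effect amounted to -0.83 (standard error 0.54, adjusted p = 0.372) in the knockout and -0.53 (standard error 0.23, adjusted p = 0.368) with the siRNA. Adjusted p-values here and below are Benjamini-Hochberg values over all genes tested, from quasi-likelihood tests in edgeR.

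STAT6, on chromosome 12 (57095405 to 57111413, hg38), was lower in both perturbations and is the gene the siRNA targets. It had 31.9 and 13.2 CPM in wild-type cells and 2.76 and 2.20 CPM in the knockout. It had 42.5 and 31.4 CPM with control siRNA and 9.92 and 5.98 CPM with STAT6 siRNA. In neither table did the groups overlap. The log2 effect amounted to -3.18 (standard error 0.57, adjusted p = 0.0275) in the knockout and -2.25 (standard error 0.22, adjusted p = 4.11e-20) with the siRNA. The difference between the effects was -1.04, with a 95% confidence interval from -2.42 to 0.34 and an adjusted p of 0.439. STAT6 overlaps NAB2 on the opposite strand, and the sources used here do not say whether reads were assigned by strand.

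Across the 13407 genes, the knockout moved far more genes than the siRNA. In the knockout 489 genes were called higher (3.65% of those tested) and 176 lower (1.31%), at an adjusted p below 0.05. With STAT6 siRNA, in a fit that kept the library number, 27 were called higher (0.201%) and 35 lower (0.261%). The difference between the effects, taken from a model of the 8 libraries together, was called for 42 genes with a higher knockout effect (0.313%) and 12 with a lower one (0.0895%), and all 54 were also called in the knockout. Genes called in both comparisons with the same sign numbered 13, of which 10 rose and 3 fell. No gene was called in both with opposite signs. At an unadjusted p below 0.05 in both, 499 genes had the same sign and 48 opposite signs. With offsets for the GC content and length of transcripts these were 460 and 107. DESeq2 also called 0 opposing genes, but it called only 5 genes with the siRNA, and 4 genes agreed there, so few could oppose. A further group of 28 genes moved in the knockout only, 19 up and 9 down, meaning that the knockout and the difference were called with the same sign, the siRNA effect was not called, and both within-number siRNA differences lay between -0.5 and 0.5. No gene met the mirrored rule for a move with the siRNA only, under edgeR or DESeq2. That rule needs a called difference without a called knockout effect, and all 54 edgeR differences were called in the knockout. It could therefore not be met under edgeR, and DESeq2 had few siRNA calls to draw on. The absence of such genes was thus not tested.

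The library number decided the siRNA calls. Without it as a block, 0 genes were called with the siRNA, and 14 had an unadjusted p below 0.05. The agreeing genes then numbered 0, the differing genes 9 and the knockout-only genes 5. The labels do not say what the number marks, so the pairing is not established by the design. Counts also rested on single knockout libraries: without knockout library 1 the agreeing genes were MYL9 and P2RY11, and without knockout library 2 they were C2orf54 and HPX. The knockout-only genes of the main fits lost that class when either knockout library was left out. The least absolute log2 value that was called was 2.56 for a difference, 1.44 for a knockout effect and 0.77 for an siRNA effect. Most knockout changes could therefore not be placed: of the 665 genes called in the knockout, 611 had no called difference and 598 of these were not called with the siRNA either.

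**Figure D1:**
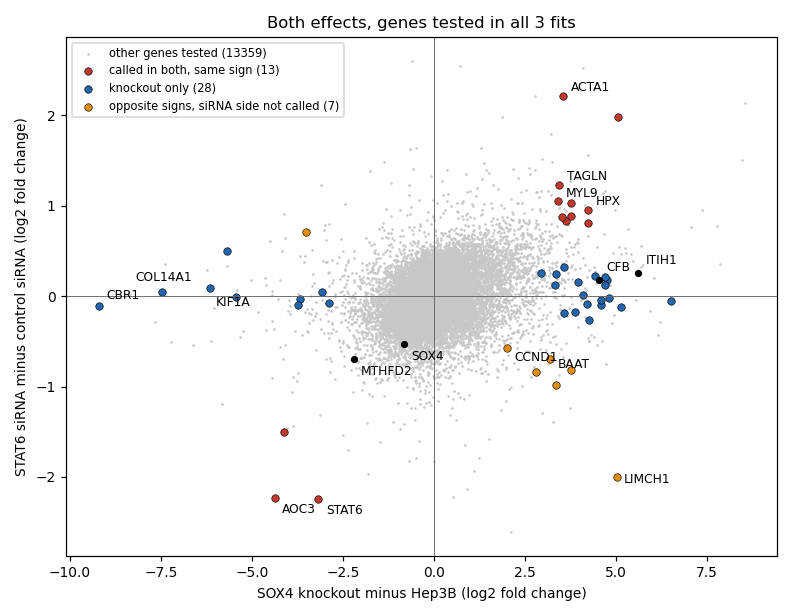
Each point is 1 of 13407 genes, with the log2 fold change of SOX4 knockout minus Hep3B on the horizontal axis and of STAT6 siRNA minus control siRNA on the vertical axis. The 13 genes called in both with the same sign (red) lie in the upper right and lower left, the 28 knockout-only genes (blue) lie along the horizontal axis, and the 7 genes with opposite signs whose siRNA side was not called (orange) lie in the upper left and lower right.

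Of the 13 agreeing genes, 10 met the count minimum of 100 in both tables. MYL9, the regulatory light chain of smooth muscle myosin, had 8.12 and 10.3 CPM in wild-type cells and 97.5 and 99.1 CPM in the knockout. It had 52.6 and 33.6 CPM with control siRNA and 99.3 and 76.3 CPM with STAT6 siRNA. Both groups were apart in each table, and within each number the STAT6 siRNA library was the higher. The log2 effect amounted to 3.42 (standard error 0.37, adjusted p = 0.0104) in the knockout and 1.05 (standard error 0.21, adjusted p = 0.00071) with the siRNA. TAGLN, the actin-binding protein transgelin, had 4.99 and 7.70 CPM in wild-type cells, 87.1 and 51 in the knockout, 33.9 and 21.5 with control siRNA, and 63.3 and 63.2 with STAT6 siRNA. It was higher in every treated library, by 3.44 (adjusted p = 0.0153) in the knockout and 1.23 (adjusted p = 1.41e-05) with the siRNA. ACTA1, skeletal muscle actin, lies under the count minimum and was named after its values were seen. It had 0.397 and 0.422 CPM in wild-type cells, 5.72 and 4.01 in the knockout, 1.64 and 1.33 with control siRNA, and 4.63 and 9.41 with STAT6 siRNA. Its effects of 3.55 (adjusted p = 0.0319) and 2.22 (adjusted p = 1.93e-09) were the closest in size among the agreeing genes that rose, and their difference of 1.27 had an interval from -0.38 to 2.92.

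HPX, hemopexin, the plasma protein that binds free heme, had 2.72 and 3.80 CPM in wild-type cells and 95.9 and 27.8 CPM in the knockout. It had 20.6 and 9.42 CPM with control siRNA and 39.5 and 18.5 CPM with STAT6 siRNA. The STAT6 siRNA library 2 lay below control siRNA library 1, so the siRNA groups overlapped, and the rise stood within each number. The effects were 4.24 (standard error 0.66, adjusted p = 0.0215) and 0.96 (standard error 0.21, adjusted p = 0.0041). TMPRSS6, the membrane protease matriptase-2 that lowers hepcidin, had 9.08 and 2.85 CPM in wild-type cells, 80.4 and 55.2 in the knockout, 29.4 and 14.1 with control siRNA, and 64.4 and 21.4 with STAT6 siRNA. Its siRNA groups overlapped in the same way, and the effects were 3.51 (adjusted p = 0.0254) and 0.88 (adjusted p = 0.0108). SAA4, the constitutive serum amyloid A of the liver, was named after its values were seen and had 0.227 and 0.0527 CPM in wild-type cells, 5.19 and 4.34 in the knockout, 0.565 and 0.444 with control siRNA, and 1.25 and 2.72 with STAT6 siRNA. SAA4 lies under the count minimum, with 4 and 1 counts in wild-type cells and 10 to 66 in the libraries of the siRNA table. It overlaps the readthrough gene SAA2-SAA4 on the same strand, so its counts are uncertain. Hemopexin, matriptase-2 and serum amyloid A4 were thus called higher in both comparisons, each with the smaller effect for the siRNA.

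Of the other genes that rose in both, GLTPD2, a glycolipid transfer domain protein, rose by 3.63 and 0.83, and NEU4, a sialidase, by 3.76 and 0.89. C2orf54, now MAB21L4, rose by 4.25 and 0.80, and C1orf233, now FNDC10, by 3.75 and 1.03. The siRNA groups of all 4 overlapped between numbers. The 3 genes that fell in both were STAT6, P2RY11 and AOC3. P2RY11, a purinergic receptor for ATP, had 49.5 and 39.0 CPM in wild-type cells, 3.48 and 1.59 in the knockout, 4.41 and 19.5 with control siRNA, and 2.79 and 4.79 with STAT6 siRNA. It shares sequence with the readthrough gene PPAN-P2RY11 on the same strand, so its counts are uncertain. AOC3, the vascular adhesion protein 1 amine oxidase, had 8.34 and 37.9 CPM in wild-type cells and 1.48 and 0.715 in the knockout, but at most 2.04 CPM in any library of the siRNA table, and was named after its values were seen.

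In all 13 agreeing genes the siRNA effect was the smaller in absolute size, and the difference between the effects was called in 0 of the 13, with a largest absolute value of 3.33. Of the 13, DESeq2 kept ACTA1, MYL9, STAT6 and TAGLN, and offsets for length and GC content lost C1orf233, GLTPD2 and NEU4. The median GC content of the 13 transcripts was 59%, against 48.5% over all genes tested. Where the siRNA side was read without a test, as both within-number differences of at least 0.5 in size and of the knockout's sign, 72 genes agreed, 58 up and 14 down, the 13 genes above among them. Over all genes tested, 1.74% had both differences at least 0.5 above 0 and 1.76% at least 0.5 below. Named from this group after their values were seen, APOA1, the main protein of high-density lipoprotein, had effects of 2.40 and 0.68, and TFR2, transferrin receptor 2, a sensor of plasma iron in hepatocytes, 3.42 and 0.97. On the falling side TXNRD1, thioredoxin reductase 1, had -2.01 and -0.68, and BCAT1, the cytosolic branched-chain aminotransferase, -3.24 and -0.60.

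The promoters of agreeing genes were read because contractile genes such as ACTA1 are classical targets of serum response factor (SRF), which binds the CArG box. RefSeq promoters (GRCh38.p14, 250 bases before to 50 after a start) were available for 6 of the 13 genes. A CArG box, that is, a pair of C, then 6 bases that are A or T, then a pair of G, was found in ACTA1 and HPX, in 2 of the 7 promoters of those genes, against 1.29% of 35116 promoters in the table and 1.05% of 14641 promoters of genes tested. This motif was chosen after the values were seen. ACTA1 is shown at chr1:229434095-229434214 and HPX at chr11:6440988-6441107, both on the minus strand, as 120 bases 5′ to 3′ with the CArG box in capitals.
ACTA1: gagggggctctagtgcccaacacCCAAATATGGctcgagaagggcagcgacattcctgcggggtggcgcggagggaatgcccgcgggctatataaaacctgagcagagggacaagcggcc
HPX: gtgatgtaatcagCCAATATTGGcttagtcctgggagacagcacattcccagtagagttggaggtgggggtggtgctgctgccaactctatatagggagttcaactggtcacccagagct
The box begins 97 bases before the start in ACTA1 and 107 before it in HPX. The palindromic STAT motif TTCNNNGAA, the same motif with 4 bases between its arms, and the SOX motif AACAAAG or AACAATG, each searched on both strands, were found in 0 of the 7 promoters, against 7.66%, 6.44% and 8.22% of all promoters. A match is a description of letters in this window and not of binding.

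MTHFD2 moved down in the knockout and had lower values with the siRNA that did not pass the test. On chromosome 2 (74198563 to 74215297, hg38), it had 728 and 506 CPM in wild-type cells and 114 and 153 in the knockout, and the groups were apart. It had 154 and 457 CPM with control siRNA and 80.5 and 334 with STAT6 siRNA, which overlap between numbers and are lower within each, by 0.93 and 0.46 on the log2 scale. The log2 effect amounted to -2.21 (standard error 0.42, adjusted p = 0.0319) in the knockout and -0.69 (standard error 0.22, unadjusted p = 0.00195, adjusted p = 0.166) with the siRNA. The difference was -1.62 (standard error 0.47, adjusted p = 0.169, unadjusted p = 0.00744). With the offsets for transcript length and GC content the siRNA effect was -0.51 (adjusted p = 0.00476) and the knockout effect -1.91 (adjusted p = 0.0566), so which side passed changed with the offsets.

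Opposite signs were seen in 7 genes called in the knockout, none with a called siRNA effect. Their within-number siRNA differences were both at least 0.5 in size the other way. Of the 7, 6 were among the 489 genes called higher in the knockout and 1 among the 176 called lower. Over all genes tested, 1.76% had both siRNA differences at least 0.5 below 0 and 1.74% at least 0.5 above, and the 7 were not above those shares. BAAT, the enzyme that joins bile acids to glycine or taurine, had 22.9 and 17.2 CPM in wild-type cells, 231 and 134 in the knockout, 14.5 and 27.7 with control siRNA, and 8.38 and 18.1 with STAT6 siRNA. It rose in the knockout by 3.19 (adjusted p = 0.0152) and had -0.69 with the siRNA (unadjusted p = 0.0013, adjusted p = 0.131), and the difference of 3.77 (standard error 0.48, adjusted p = 0.0233) was called. CCND1, cyclin D1, which drives entry into S phase, had 17.8 and 25.2 CPM in wild-type cells, 75.8 and 96.4 in the knockout, 35.4 and 45.8 with control siRNA, and 23.4 and 31.1 with STAT6 siRNA. In CCND1 both pairs of groups were apart, in opposite directions. Its effects were 2.00 (adjusted p = 0.0316) and -0.58 (unadjusted p = 0.00502, adjusted p = 0.244), with a difference of 2.47 (adjusted p = 0.06). LIMCH1, an activator of non-muscle myosin, had 8.80 and 1.95 CPM in wild-type cells and 158 and 191 in the knockout, and at most 1.20 CPM in the siRNA table, with a difference of 6.97 (adjusted p = 0.0328). The remaining 4, EIF4E3, LOC730102, PARP11 and RDH5, had a called knockout effect and no called difference. Under the GC and length offsets the siRNA side was called for CCND1 (-0.55, adjusted p = 0.00986), LIMCH1 (-1.87, adjusted p = 0.048) and S100A6 (-0.43, adjusted p = 0.0345), which made 3 opposing genes in place of 0.

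Among the 28 genes that moved in the knockout only, CBR1, COL14A1 and KIF1A had the deepest falls, with siRNA effects of -0.11, 0.05 and 0.09. CBR1, carbonyl reductase 1, an NADPH-dependent enzyme for quinones and anthracyclines, had 8.46 and 24.9 CPM in wild-type cells, and 0.0379 and 0 CPM in the knockout, where both libraries had 3 counts or fewer. It had 20.8 and 16.1 CPM with control siRNA and 17.8 and 16.1 with STAT6 siRNA. Against 3 counts per library the knockout level was at least 119.9-fold lower, and the siRNA effect had an interval from -0.52 to 0.30. KIF1A, a kinesin that carries synaptic vesicle precursors in neurons, had 237 and 477 CPM in wild-type cells and 3.67 and 6.32 in the knockout, against 300 and 307 with control siRNA and 400 and 262 with STAT6 siRNA. KIF1A fell by 6.16 on the log2 scale in the knockout, with a difference of -6.37 (standard error 0.67, adjusted p = 0.0152). COL14A1, a collagen of the fibril-associated class, had 174 and 28.5 CPM in wild-type cells and 0.682 and 0.440 in the knockout, while control siRNA gave 15.8 and 47 and STAT6 siRNA 16.6 and 48.0. Its difference was -7.60 (standard error 1.07, adjusted p = 0.0328).

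SLC3A2, the heavy chain that brings the amino acid exchangers SLC7A5 and SLC7A11 to the membrane, had 1067 and 1548 CPM in wild-type cells and 145 and 166 in the knockout, against 597 and 477 with control siRNA and 751 and 405 with STAT6 siRNA. The knockout libraries lay far below both Hep3B libraries, and the siRNA differences within numbers 1 and 2 were 0.33 and -0.23, with opposite signs. The difference between the effects was -3.23 (standard error 0.51, adjusted p = 0.0418). VANGL2, a core protein of planar cell polarity, had 26.4 and 7.91 CPM in wild-type cells, 0.492 and 0.275 in the knockout, 27.1 and 15.0 with control siRNA, and 25.7 and 15.6 with STAT6 siRNA, and a difference of -5.51. COLGALT2, a collagen galactosyltransferase, had a difference of -3.75, with siRNA differences of 0.00 and -0.06 within the numbers. AKNA, a protein of microtubule organization, DOK3, an adaptor of immune signalling, and FAM129A, a stress-responsive protein, completed the 9 falls, with differences of -2.91, -3.75 and -6.31, and were named after their values were seen. FAM129A lay at the limit of the class, with siRNA differences of 0.498 and 0.486 within the numbers and an siRNA effect of 0.50 (unadjusted p = 0.0641, adjusted p = 0.49).

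Of the 19 rises, AKR1C1, an aldo-keto reductase of steroids and aldehydes, had 5.05 and 2.00 CPM in wild-type cells, 111 and 59.6 in the knockout, 9.33 and 6.53 with control siRNA, and 8.89 and 5.94 with STAT6 siRNA. The knockout libraries were apart from Hep3B and the siRNA pairs hardly differed within a number, and the difference was 4.59 (standard error 0.68, adjusted p = 0.0383). S100A6, a calcium-binding protein of proliferating cells, had 126 and 59 CPM in wild-type cells and 1040 and 1166 in the knockout. It had 521 and 213 CPM with control siRNA and 503 and 171 with STAT6 siRNA, and a difference of 3.66 (adjusted p = 0.04). FAXDC2, a fatty acid hydroxylase domain protein, had a difference of 4.47, SPTSSB, a small subunit of serine palmitoyltransferase, 3.95, HYAL1, a lysosomal hyaluronidase, 3.70, and PTPRS, a receptor tyrosine phosphatase, 3.13, with adjusted p of 0.04, 0.04, 0.0233 and 0.0257. Their siRNA effects were 0.18, -0.18, 0.15 and 0.32. The other 13 rises, of which all but AXL were named after their values were seen, included AXL, a receptor tyrosine kinase for GAS6 (4.74), DKK3, a secreted protein of the dickkopf family (5.17), IGFBP7, a secreted binder of insulin-like growth factors (3.01), EFEMP1, the matrix protein fibulin-3 (4.23), and SERPINF1, pigment epithelium-derived factor (2.56), each value being the difference of the effects. EMP3, MALL, CAND2, GDA, KCNQ1, S1PR3 and TP53I11 were among the remainder, with differences from 3.09 to 6.39. With few reads a small siRNA difference says little. AXL, DKK3, EMP3, MALL, KCNQ1 and TP53I11 averaged 15.5 to 32 counts per library in the siRNA table, against 1225 for IGFBP7 and 2970 for SERPINF1. The interval of the siRNA effect of AXL ran from -0.94 to 0.89. Of 10 alternatives, AXL kept the class in 5 and EMP3 in 4.

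Promoters of these genes were read for the same STAT and SOX motifs, and those of KIF1A and SLC3A2 are shown because they hold a STAT motif. Their small siRNA effects follow from the rule of the class. RefSeq promoters were found for 19 of the 28 genes, 31 promoters in all. TTCNNNGAA stood in 3 of the 31, in KIF1A and SLC3A2, and the motif with 4 bases between the arms in 3, in AKR1C1, DOK3 and SLC3A2. The SOX motif stood in 2, in MALL and TP53I11. These shares were 9.68%, 9.68% and 6.45%, against 7.66%, 6.44% and 8.22% of all promoters. Among promoters of genes tested they were 6.3%, 4.92% and 5.69%. With 31 promoters, the shares lay near those backgrounds. KIF1A is shown at chr2:240821404-240821523 on the minus strand and SLC3A2 at chr11:62881579-62881698 on the plus strand, with TTCNNNGAA in capitals.
KIF1A: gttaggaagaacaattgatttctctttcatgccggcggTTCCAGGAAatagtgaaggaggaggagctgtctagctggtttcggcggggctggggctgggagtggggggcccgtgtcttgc
SLC3A2: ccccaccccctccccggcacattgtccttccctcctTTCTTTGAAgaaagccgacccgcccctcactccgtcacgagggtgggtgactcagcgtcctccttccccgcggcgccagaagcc
The motif begins 82 bases before the start in KIF1A and 84 before it in SLC3A2. As counted here, KIF1A spans 240713764 to 240820308 and SLC3A2 62856012 to 62888883. Neither window therefore lies at the outer start of its gene as counted, and which start was in use was not tested.

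Of the 54 genes with a called difference, 26 were not in the knockout-only class, because a within-number siRNA difference lay beyond 0.5. Among them, CFB, complement factor B, had 12.4 and 7.23 CPM in wild-type cells, 264 and 190 in the knockout, 14.8 and 8.98 with control siRNA, and 13 and 12.9 with STAT6 siRNA. Its knockout effect of 4.54 stood against 0.17 with the siRNA, and the difference was 4.26 (standard error 0.51, adjusted p = 0.0206). UGT2B15, a glucuronosyltransferase of androgens and drugs, had 2.72 and 2.32 CPM in wild-type cells and 274 and 87.9 in the knockout, and at most 3.91 CPM in the siRNA table, with a difference of 6.53 (adjusted p = 0.0201). For 33 of the 54 genes the siRNA table held fewer than 100 counts per library on average, and for 30 of the 54 the interval of the siRNA effect lay within -1 to 1.

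Functions were compared through 37 gene lists, each described by the count of called members and the median log2 effect. The median over all genes tested was -0.02 in the knockout, -0.04 with the siRNA and -0.08 for the difference. Of the 13407 genes tested, 6605 lay above 0 and 6802 below in the knockout, and 6083 above and 7324 below with the siRNA. Calls among them were 3.65% higher and 1.31% lower in the knockout, and 0.201% higher and 0.261% lower with the siRNA. The targets of ATF4, the transcription factor of the integrated stress response that drives amino acid synthesis and uptake, had the lowest knockout median among lists with at least 7 tested members, beside an siRNA median near that of all genes. All 36 tested members had knockout effects below 0, and 16 were called lower. With the siRNA 0 were called, 16 lay above 0 and 20 below. The median was -1.75 in the knockout and -0.09 with the siRNA, the median difference was -1.69, and 26 of the 36 had an unadjusted p below 0.05 for the difference, against 2080 of 13407 genes tested. SLC3A2 was the member with a called difference.

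Within the list, ASNS, asparagine synthetase, had 371 and 257 CPM in wild-type cells, 50.2 and 57.1 in the knockout, 241 and 313 with control siRNA, and 132 and 247 with STAT6 siRNA. It was lower in all treated libraries than in the matched control, by 2.55 (adjusted p = 0.0192) in the knockout and 0.60 with the siRNA (unadjusted p = 0.0061, adjusted p = 0.265). ATF3, a stress-induced transcription factor, had effects of -2.88 and -0.47, with a difference of -2.52 (adjusted p = 0.0652). SESN2, which senses leucine for mTORC1, had -2.46 and 0.24, with a difference of -2.81 (adjusted p = 0.0629), and ADM2, the peptide hormone intermedin, had -1.98 and 0.15, with -2.24 (adjusted p = 0.06). PHGDH, which opens serine synthesis, had -2.21 and 0.01, and PSAT1, its next enzyme, -1.73 and -0.42. CEBPG, the dimer partner of ATF4, had -1.18 and -0.62 (unadjusted p = 0.00347), with neither called. With the GC and length offsets 4 members were called lower with the siRNA, 32 of 36 lay below 0, and the siRNA median was -0.14, against -1.92 in the knockout.

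The C/EBP-ATF response element (CARE), TGATGNAA on either strand, was searched after the values were seen, because ATF4 acts through it with a C/EBP partner. It stood in 12 of 45 promoters (26.7%) of 28 list genes found in the RefSeq table, against 3.62% of all promoters and 1.91% of those of genes tested. The list was made of ATF4 targets, so a high share was to be found whatever the effects were. It describes the list and says nothing of the knockout or the siRNA. ASNS is shown at chr7:97872409-97872528 on the minus strand and CEBPG at chr19:33373993-33374112 on the plus strand, with the element in capitals.
ASNS: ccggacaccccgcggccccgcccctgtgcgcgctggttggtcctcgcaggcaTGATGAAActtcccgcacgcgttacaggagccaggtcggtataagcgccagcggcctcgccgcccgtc
CEBPG: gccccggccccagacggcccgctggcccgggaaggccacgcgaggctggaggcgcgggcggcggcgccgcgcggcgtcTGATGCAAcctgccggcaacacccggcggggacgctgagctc
The element begins 68 bases before the start in ASNS and 42 before it in CEBPG.

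Lists of protein synthesis and folding had few calls and 0 called differences. The 20 cytosolic aminoacyl-tRNA synthetases, which charge tRNAs, had medians of -0.95 in the knockout and -0.10 with the siRNA, with 1 called lower in the knockout and 0 with the siRNA. The 18 endoplasmic reticulum chaperones all lay below 0 in the knockout, with a median of -1.08 and 2 called lower, HERPUD1 (-2.45) and DNAJC3 (-1.60), whereas 12 lay above 0 with the siRNA, with a median of 0.09 and 0 called. HYOU1, a chaperone of the HSP70 class, had 1104 and 1012 CPM in wild-type cells, 218 and 376 in the knockout, 343 and 254 with control siRNA, and 444 and 295 with STAT6 siRNA, with a difference of -2.23 (unadjusted p = 0.00177, adjusted p = 0.0959). CRELD2, another protein of the folding pathway, had -1.17 and 0.58 (unadjusted p = 0.005). The 13 heat shock proteins had medians of -1.31 and 0.01 with 0 called in either table, and here Hep3B library 2 stood apart: HSPA1B, an inducible HSP70, had 92.4 and 2178 CPM in wild-type cells and 121 and 98.5 in the knockout. The list's median difference of -1.43 was 0.30 without Hep3B library 2 and -2.0 without Hep3B library 1, so its direction rested on Hep3B library 2. The 25 glycolysis and hypoxia genes had medians of -0.84 and 0.08, with 1, ALDOC, called higher and 0 lower in the knockout. Their median difference of -1.01 was 0.42 without Hep3B library 1 and -1.41 without Hep3B library 2, so its direction rested on Hep3B library 1.

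Plasma proteins made by hepatocytes leaned upward in both comparisons. Of 28 tested, 27 lay above 0 in the knockout, 25 with the siRNA and 24 in both. Over all 13407 genes tested these numbers were 6605, 6083 and 3862. In the knockout 11 of the 28 were called higher, and with the siRNA 1, HPX, against 3.65% and 0.201% of all genes tested. The median was 1.75 in the knockout, 0.39 with the siRNA and 1.47 for the difference. CFB and ITIH1, a heavy chain of the inter-alpha-trypsin inhibitor, had a called difference. ITIH1 had 0.624 and 0.422 CPM in wild-type cells, 36.9 and 14.5 in the knockout, and at most 1.16 CPM in any library of the siRNA table, with a difference of 5.25 (adjusted p = 0.0418). TTR, transthyretin, had effects of 3.14 and 0.51, VTN, vitronectin, 3.21 and 0.53, APOC3, an inhibitor of lipoprotein lipase, 3.38 and 0.60, and F2, prothrombin, 2.63 and 0.45, each called in the knockout and not with the siRNA. APOH, which binds phospholipids, had 3.27 and 0.05. With the GC and length offsets 8 of the 28 were called higher and 1 lower with the siRNA, with a median of 0.33.

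Of 20 enzymes of drug and hormone conjugation tested, 7 were called higher in the knockout and 0 with the siRNA, with medians of 1.42 and 0.05. With the GC and length offsets 2 were called higher with the siRNA, and the glutathione transferases GSTM3 (1.87 and 0.48) and GSTO1 (1.57 and 0.47) joined the agreeing genes. UGT2B15 and GSTT2B, a glutathione transferase with a near-identical copy whose counts are therefore uncertain (4.18), had a called difference, and SULT1E1, estrogen sulfotransferase, had effects of 3.35 and -0.53. The 13 cytochrome P450 enzymes had medians of 1.05 and -0.03, with CYP2S1 called higher (3.48) and CYP2B6 lower (-6.04) in the knockout. CYP2B6 had an siRNA effect of -0.13. The 12 hepatic transporters had medians of 1.01 and -0.06 with 3 called higher in the knockout, and the 22 genes of fatty acid oxidation and ketogenesis had 0.71 and 0.04 with 4 called higher. The 16 hepatocyte transcription factors had medians of 0.38 and -0.02, with 0 called in either table.

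Cytoskeletal and matrix lists were mixed. Of 20 genes of the actin cytoskeleton and of SRF and YAP, 4 were called higher in the knockout, TAGLN, MYL9, AXL and TPM1, and 2 of these, TAGLN and MYL9, with the siRNA as well. TPM1, tropomyosin 1, had effects of 1.98 and -0.08. With the siRNA 11 of the 20 lay below 0, near the share of all genes tested, 7324 of 13407. The medians were 0.63 and -0.04. Of 21 extracellular matrix genes 3 were called higher and 1 lower in the knockout, with medians of 1.08 and 0.26. TIMP1, an inhibitor of matrix metalloproteinases, had 3.23 and 0.11. TIMP3, a related inhibitor, was called higher with the siRNA (2.60, adjusted p = 0.0122), had -0.61 in the knockout and held between 1 and 40 counts in each library. In the list of NRF2 targets and NADPH enzymes the knockout raised 3 and lowered 4 of 23, with medians of -0.49 and -0.11. AKR1C1, AKR1C2 and AKR1C3 rose, near-identical copies whose counts are uncertain, while CBR1, TXNRD1, GSR, glutathione reductase, and HMOX1, heme oxygenase 1, fell, and 0 were called with the siRNA.

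The other lists had few calls, and several of their medians depended on a single library. Between leaving out Hep3B library 1 and Hep3B library 2, the median difference went from -0.50 to 0.67 in cholesterol synthesis, from 0.72 to -0.50 in the immediate early genes and from 0.69 to 0.18 in the Wnt pathway. In DNA replication and mitosis it was 0.34 without Hep3B library 2 and -0.80 without knockout library 2. The medians in the knockout, with the siRNA and of the difference were 0.19, 0.24 and -0.01 in 24 genes of cholesterol synthesis, 0.50, 0.16 and 0.17 in 16 of fatty acid synthesis, and 0.02, -0.09 and 0.03 in 25 folate and one-carbon enzymes. They were 0.12, 0.02 and -0.23 in 24 genes of nucleotide synthesis, -0.14, -0.10 and -0.25 in 33 of DNA replication and mitosis, 0.31, 0.05 and 0.10 in 33 respiratory chain subunits, and -0.23, 0.00 and -0.27 in 34 mitochondrial ribosomal proteins. The 20 members of the STAT and IL-4 pathway without STAT6 had 0.47, 0.03 and 0.21 with 0 called in either table. Signalling lists had small siRNA medians beside larger knockout ones: 1.02 and 0.02 in 25 genes of the TGF-beta and BMP pathway, 0.59 and -0.11 in 20 of the Wnt pathway, 0.50 and -0.05 in 20 genes of epithelial and mesenchymal state, and 0.87 and 0.09 in 7 SOX family genes. The 17 interferon-stimulated genes had 0.24 and 0.15, the 11 genes of MHC class I 0.52 and 0.22, and the 19 immediate early genes -0.05 and -0.16. The study's list of shared SOX4 and STAT6 targets, which was chosen on these samples and is therefore no independent evidence of direction, had 68 tested members, of which 3 were called higher and 3 lower in the knockout, 0 with the siRNA and 0 for the difference, with medians of 0.28, 0.03 and 0.12.

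**Figure D2:**
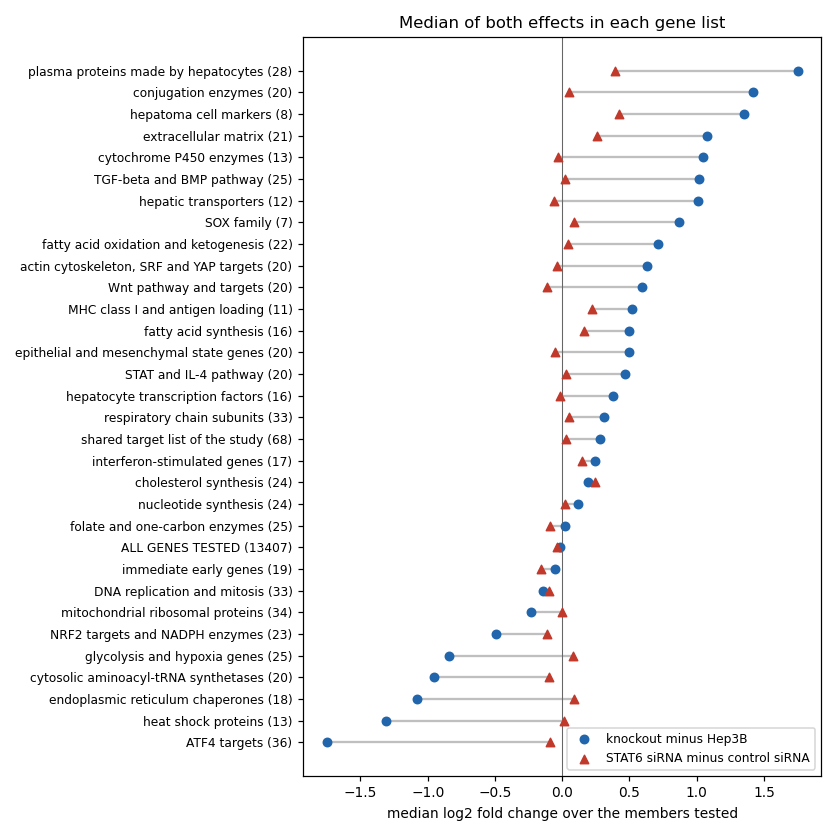
Each line is a gene list with at least 7 tested members, the number tested in brackets, and the horizontal axis is the median log2 fold change of its members. Blue circles (knockout minus Hep3B) run from -1.75 for the ATF4 targets to 1.75 for the plasma proteins, while red triangles (STAT6 siRNA minus control siRNA) lie between -0.16 and 0.42.

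Read from the siRNA side, genes called higher leaned upward in the knockout, while genes called lower were split nearly evenly, like all genes tested. Of the 27 genes called higher with STAT6 siRNA, 26 had knockout effects above 0, with a median of 2.43, beside a median siRNA effect of 1.07. Of the 35 called lower, 18 lay below 0 and 17 above in the knockout, with a median of -0.14, beside a median siRNA effect of -0.95. Over all genes tested, 6802 lay below 0 and 6605 above in the knockout, with a median of -0.02. Of the 62, 49 were not called in the knockout, and 13 of these had an unadjusted p below 0.05 for the difference. HSDL2, a peroxisomal dehydrogenase-like protein, had 41.6 and 30.4 CPM in wild-type cells, 89.0 and 42.2 in the knockout, 14.2 and 33.8 with control siRNA, and 3.53 and 12.8 with STAT6 siRNA. It fell with the siRNA by 1.65 (adjusted p = 1.93e-09) and had 0.86 in the knockout (adjusted p = 0.262), and the difference of 2.44 had an adjusted p of 0.0993. METAP2, a methionine aminopeptidase, had -1.20 with the siRNA (adjusted p = 0.000103) and -0.38 in the knockout, and GMFB, glia maturation factor beta, -1.06 (adjusted p = 0.0024) and -0.14. IL18, the interleukin, had -0.81 (adjusted p = 0.0443) with the siRNA and 2.32 in the knockout (adjusted p = 0.0838), with a difference of 3.10 (unadjusted p = 0.0071, adjusted p = 0.165), and it became an opposing gene when both tables kept the library number. On the rising side IGFBP4 had 1.03 with the siRNA (adjusted p = 0.00542) and 2.28 in the knockout (adjusted p = 0.0802). These genes were named after their values were seen.

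GC content of the transcripts moved with the siRNA effect, and so with the genes that agree. Across 13081 genes the Spearman correlation of GC content was 0.58 with the siRNA effect, 0.56 within number 1 and 0.33 within number 2. It was 0.25 with the knockout effect, 0.07 with the difference and -0.74 with control siRNA library 2 minus library 1, libraries of the same group. Genes are not independent replicates, and these values describe the libraries. The median GC content was 59.9% in the genes called higher with the siRNA and 45.2% in those called lower, 56.4% and 45.9% in the genes called higher and lower in the knockout, and 53.5% in the knockout-only genes. The genes called higher in the knockout had a median siRNA effect of 0.28, 0.35 within number 1 and 0.22 within number 2, and those called lower had -0.21. In the bin of lowest GC content, with a median of 36.6%, the median siRNA effect was -0.27 and -0.24 within the numbers, and in the highest, with a median of 64.4%, it was 0.49 and 0.10. With the offsets for transcript length and GC content, beside the library number, 99 genes were called higher and 224 lower with the siRNA, 31 genes agreed (17 up, 14 down, 10 of the 13 among them), 27 differences were called, and 18 genes moved in the knockout only, 8 of the 28 among them. ASNS (-2.44 and -0.51), TXNRD1 (-1.81 and -0.54), TTR (3.25 and 0.60) and FGB, the fibrinogen beta chain (2.76 and 0.42), joined the agreeing genes there. The part of GC content in the shared direction of both effects was not tested beyond these offsets.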

How the data were processed

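RNA had been extracted with TRIzol and libraries made with an Illumina stranded mRNA preparation. The submitters' processing notes name STAR, Partek and hg38, with no roles or versions, and whether counting used strand is not given in the sources used here. The authors deposited expected counts per transcript, not normalized, in 2 tables of 4 libraries each, holding transcripts whose sum over the 4 libraries was at least 10. Whole numbers made up 20.3% and 20.1% of the values. Expected counts were summed by gene symbol and rounded, and 19 symbols per table that had turned into dates were resolved by chromosome. No precision beyond counting and the spread of 2 libraries per group can be had, and library totals are given in the text.

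Genes were filtered with filterByExpr, scaled by TMM and tested with edgeR 4.0.16 quasi-likelihood tests in R 4.3.3, at an adjusted p below 0.05 (Benjamini-Hochberg over all genes of a fit). One fit took the knockout table, one the siRNA table with library number as a block, and one all 8 libraries, in which the difference between the effects was a contrast. Its value therefore need not equal one effect minus the other. Single-library differences used log2 CPM with a prior count of 2. Data were simulated over 14313 genes, with the moved genes drawn from those with a mean of at least 100 counts. The difference fit recovered 95 of 100 genes moved by 4 on the log2 scale in the knockout only. Of genes moved by 1.5 with the siRNA, 49 of 50 agreeing (3 in the knockout) and 47 of 50 opposing (-3 in the knockout) were found. Recovery of smaller siRNA moves, or in genes with fewer counts, was not simulated. False calls numbered 19 in the knockout fit, 1 in the siRNA fit and 3 in the difference fit.

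The members and lists were chosen with earlier results of these data known. Genes were named by rule: SOX4, STAT6 and MTHFD2, then, given an average of 100 or more counts per library in both tables, up to 8 agreeing or opposing genes per direction by the smaller of both effects, 6 rises and 6 falls of the knockout-only class by the difference, and up to 4 members per list by the unadjusted p of the difference. Other genes were named after their values were seen, and most are marked so. LIMCH1, EIF4E3, LOC730102, PARP11, RDH5, ASNS, PHGDH, PSAT1 and CEBPG were also named after their values were seen, without a mark there. The same holds for F2, APOH, TIMP3, GSR, HMOX1, GSTM3, GSTO1 and FGB. Alternatives were RLE factors, DESeq2 1.42.0, other filters, blocks and dispersion settings, GC and length offsets (mgcv 1.9.3, with values for 96.2% of genes) and leaving out each library. Weighted limma 3.58.1 with voom was added after seeing the data. Other data of the study were not analysed here. The result of 1 gene of the knockout-only class is not reported here.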

Additional observations from a re-analysis of the deposited data

Results flagged for a closer look

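Of the 13407 genes tested, 54 had effects in the knockout and with STAT6 siRNA that differed by the test of the difference itself. Those named by rule with a higher effect in the knockout had log2 differences of 4.59 for AKR1C1, 4.74 for AXL, 3.77 for BAAT, 4.26 for CFB, 4.47 for FAXDC2, 4.18 for GSTT2B, 3.70 for HYAL1, 5.25 for ITIH1, 3.13 for PTPRS, 3.66 for S100A6, 3.95 for SPTSSB and 6.53 for UGT2B15. Those with a lower effect in the knockout had -9.17 for CBR1, -7.60 for COL14A1, -3.75 for COLGALT2, -6.37 for KIF1A, -3.23 for SLC3A2 and -5.51 for VANGL2. With 2 libraries in a group, no library could be tested for standing apart from its group.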

How the results depend on the processing

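Leaving out a library gave from 16 to 2023 genes called in the knockout, 0 to 62 with the siRNA, 0 to 1487 for the difference, 0 to 19 agreeing, 0 to 5 opposing and 0 to 899 in the knockout only, where a lone library is assumed to vary like the others. Without Hep3B library 1 the difference was called for 1487 genes and without Hep3B library 2 for 600, without knockout library 1 for 4 and without knockout library 2 for 1, and without any siRNA library for 0. When an siRNA library was left out, the siRNA effect was fitted on the remaining libraries of both tables together. The spread of the knockout table then entered its error, with a common dispersion of 0.145 against 0.0169 in the siRNA table. The loss of siRNA calls there thus also reflects a change of model. The knockout-only and agreeing genes kept their class when either Hep3B library was left out, where far more genes were called, so this says little. The knockout-only genes lost their class when either knockout library was left out. Under DESeq2 the counts were 1898 in the knockout, 5 with the siRNA, 614 for the difference, 4 agreeing and 333 in the knockout only. With at least 10 counts in every library, 30 differences and 17 knockout-only genes remained in number. Limma-voom with a weight per table, added after seeing the data, gave 273 and 148. Offsets for GC content and transcript length with the block gave 323, 27, 31, 3 and 18 for the siRNA, the difference, agreeing, opposing and knockout-only genes. RLE factors gave 44 higher and 22 lower with the siRNA, in place of 27 and 35. The sign of the difference reversed for SOX4 (0.58) and COL1A1 (-0.16) without Hep3B library 1, for HSPA1B (0.35) without Hep3B library 2, and for PDGFRA without Hep3B library 1 (0.74), knockout library 1 (0.12), control siRNA library 2 (0.05) or STAT6 siRNA library 2 (0.05). Over all left-out libraries the range was -0.97 to 0.58 for SOX4, -0.16 to 2.36 for COL1A1, -4.24 to 0.35 for HSPA1B and -0.91 to 0.74 for PDGFRA. With a library left out, 76 list medians moved by more than a yardstick and 204 did not. The yardstick was the standard deviation of the median difference over pairings of a knockout library with a library number of the siRNA table. It used the Hep3B mean, so it leaves out the spread between the Hep3B libraries and can be too small. The causes were not tested. The depth limits differences in genes with few reads in the siRNA table.

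The labels do not say what a library number marks, so the pairing by number is not established. Across genes, number 2 minus number 1 had a Pearson correlation of 0.88 between control and STAT6 siRNA and -0.06 between Hep3B and the knockout. Without the replicate block in any fit the counts were 0 with the siRNA, 9 for the difference, 0 agreeing and 5 in the knockout only (CBR1, COL14A1, DKK3, FAM129A and KIF1A), and with the block in both tables they were 92 for the difference, 1 opposing and 48 in the knockout only.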
